A study of Mus musculus with 3 samples.

Results

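The genes of myelin and of the Schwann cell, the glial cell of peripheral nerve, that were followed in back skin were 8 in number: Mbp, Pmp22, Prx, Mag, S100b, Ngfr, Mal and Sox10. The members were chosen by name, as each probe set whose gene symbol in the platform annotation was 1 of these 8. A probe set is a group of short probes that together read 1 transcript. This gave 20 probe sets for 7 of the 8 genes, among 18193 genes measured on the arrays, and Prx, which encodes periaxin of the Schwann cell membrane, had no probe set by that name in the annotation used here. RNA from 3 groups of mice was compared: IL-10 knockout mice fed a diet with 8% powdered eggshell membrane (KOE, 6 mice), IL-10 knockout mice fed the AIN-93-based diet alone (KO, 7 mice) and C57BL/6J mice fed that same diet (WT, 5 mice). Feeding began at 4 weeks of age and lasted 28 weeks, so that the skin was taken at 32 weeks. The KO mice were males from a cross of an IL-10 knockout line with C57BL/6J, the sources used here do not give the sex of the WT mice or say whether they were littermates, and the white fat layer of the dermis was removed from each skin.

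The RNA of each group was pooled and hybridized to 1 Affymetrix mouse array, so that differences could not be checked against the spread between mice and no p-value is given. Which mice entered a pool is not stated. Values are signals from the Affymetrix Microarray Analysis Suite (MAS5 signals) on a linear scale, and the median signal was 107.5 in KOE, 96.3 in KO and 116.0 in WT. The cut-off, after the methods of the study, was a 1.5-fold difference either way, with a signal of 40 or more required in 1 or both of the arrays compared. The only measure of spread at hand was that between log2 ratios of different probe sets of 1 gene. Their SD was 0.36 in KO vs. WT, 0.29 in KOE vs. KO and 0.34 in KOE vs. WT. Such probe sets share the same 2 arrays, so this SD does not measure the spread between arrays or pools. Each group enters 2 of the 3 comparisons with its single array, so these comparisons are not independent. Il10, the altered gene, had a signal of 401 in KOE, 679.9 in KO and 17.02 in WT, which is not the order of a lost transcript. It is not known here whether the probes lie in the disrupted stretch of the gene, and the labels of the arrays are thus left unchecked by it.

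Schwann cells accompany every nerve of the skin. Around thick axons they wrap their membrane into myelin, which speeds conduction, and thin pain and temperature fibers run in bundles held by Schwann cells that form no myelin. The transcription factor Sox10 sets up the glial lineage from the neural crest and then drives myelin genes together with Egr2. Mbp coats the inner face of the compacted membrane, Pmp22 spans it, Mal organizes its lipids and Mag binds the axon across the innermost wrap. S100b is a calcium-binding protein used as a marker of Schwann cells, and Ngfr is a neurotrophin receptor that marks Schwann cells without myelin. Several of these genes are also active elsewhere, among them Sox10 and S100b in melanocytes and Pmp22 in fibroblasts and epithelia. Which cells of the skin gave the signals of Mbp, Mal and the other members was not tested.

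The myelin genes Mbp and Mal gave higher signals in the KO pool than in the WT pool, and among the strongest probe sets of each gene Mbp had the largest ratio. Of the 19 member probe sets that reached 40 in KO or WT, 11 passed the cut-off as higher in KO and none as lower, beside 10.6% higher and 20.2% lower among all 32294 probe sets that reached 40. The 11 were 7 probe sets of Mbp, both of Mal, 1 of Sox10 and 1 of Ngfr. All 19 had a ratio above 1, against 45.4% of all probe sets, and their median log2 ratio was 0.63, against −0.05. The probe sets of a gene share the same RNA and array and are not replicates.

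With 1 probe set per gene, the one of highest mean signal, Mbp and Mal were past the cut-off among the 7 genes, and the background was 10.9% higher and 14.5% lower among 14495 genes. The log2 ratios of the 7 genes lay between 0.19 and 0.86 with a median of 0.47, against a median of 0.01 over all genes. Pmp22 (0.19), Ngfr (0.26) and S100b (0.34) lay within the SD of 0.36 between probe sets of 1 gene. The scaling of the arrays changed the size of these values and kept the members' median above that of all genes. With each array set to a common median, the members had a median of 0.74 and all genes 0.29, with quantile normalization 0.71 and 0.07, and with cyclic loess normalization 0.66 and 0.02. With each array set to its keratinocyte genes, the members had a median of 0.26 and all genes −0.21. The count of member probe sets higher past the cut-off was then 6 in place of 11, and that of all genes 920 of 14632 in place of 1582 of 14495. With each array set to its fibroblast genes, the medians of the members and of all genes were 0.79 and 0.34.

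**Figure D1:**
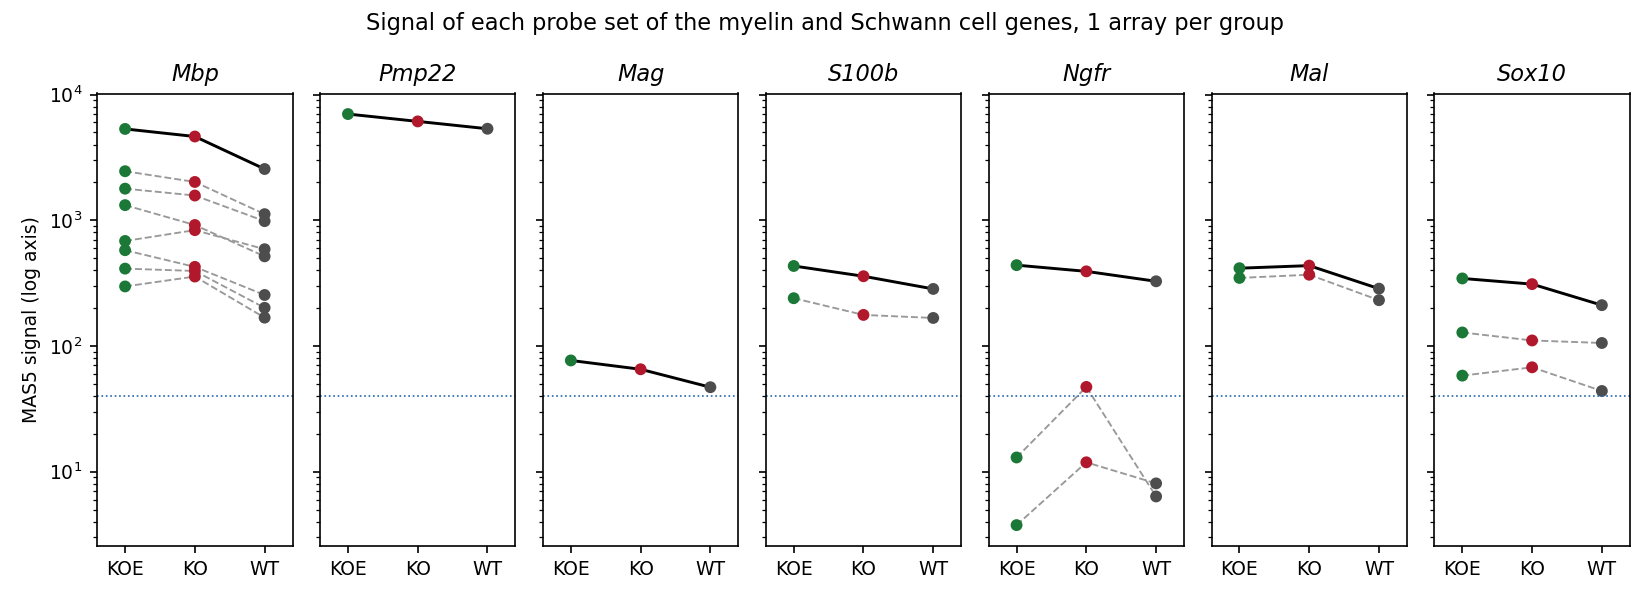
MAS5 signal (log axis) of the 20 member probe sets by gene, from 1 array of pooled RNA for KOE, KO and WT. Each line joins the 3 signals of a probe set, solid for the one with the highest mean, and the dotted line marks 40. All 8 lines of Mbp lie lowest in WT, and 2 of the 3 lines of Ngfr lie at 47.2 or below.

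Mbp, the basic protein of compact myelin, was read by 8 probe sets. The strongest, 1433532_a_at, had a signal of 5325 in KOE, 4636 in KO and 2556 in WT. The next, 1419646_a_at, had 2455 in KOE, 2016 in KO and 1118 in WT. WT was thus the lowest array at both, and it was the lowest at the other 6 as well. In KO vs. WT the 8 log2 ratios were between 0.50 and 1.09, with a mean of 0.82 ± 0.18 (SD over 8 probe sets), which is a ratio of 1.76.

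The probe set that stayed under the cut-off was 1425264_s_at, with 834 in KO and 588 in WT. The suffixes _s_at and _x_at mark probe sets that can read more than 1 transcript or cross-hybridize. Without them 8 member probe sets were higher in KO, 4 of them of Mbp, beside 1562 of all 14174 genes. Mbp was past the cut-off under each scaling tried, with a log2 ratio from 0.64 with keratinocyte scaling to 1.18 with fibroblast scaling. Of all probe sets that reached 40, 5.7% had a higher ratio of KO to WT than 1433532_a_at.

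Mal, the myelin and lymphocyte protein that carries lipid-rich membrane to the surface, was read alike by both of its probe sets. Probe set 1417275_at had 415 in KOE, 436 in KO and 286 in WT, and 1432558_a_at had 348 in KOE, 369 in KO and 231 in WT. The KO and KOE arrays lay close to each other and above WT. The ratios of KO to WT were 1.53 and 1.59, just past the cut-off, and the first fell under it with keratinocyte scaling (log2 ratio 0.39) and with 40 added to each signal (0.55).

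Mag, the adhesion protein of the innermost myelin wrap, had 1 probe set with weak signals of 76.7 in KOE, 65.3 in KO and 47.0 in WT. Its ratio of KO to WT was 1.39, under the cut-off as deposited and past it with median scaling, quantile, cyclic loess or fibroblast scaling, where the log2 ratio was 0.69 to 0.79. SOX factors such as Sox10 act on myelin genes, and the promoter of Mag is shown because, among the members with a window here, it was the one that held a SOX motif, with that of Mal beside it as one that held none. They are the 250 bases before the RefSeq transcript start (GRCm38.p6, minus strand, 5′ to 3′), with the 1 SOX motif found in capitals, at chr7:30914923-30915172 for the most upstream of 3 Mag starts and chr2:127656696-127656945 for Mal.

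Mag: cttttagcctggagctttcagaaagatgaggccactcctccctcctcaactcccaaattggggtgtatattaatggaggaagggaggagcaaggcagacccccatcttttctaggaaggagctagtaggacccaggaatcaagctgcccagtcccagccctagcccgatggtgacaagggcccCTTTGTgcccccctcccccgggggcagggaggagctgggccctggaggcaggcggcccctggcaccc
Mal: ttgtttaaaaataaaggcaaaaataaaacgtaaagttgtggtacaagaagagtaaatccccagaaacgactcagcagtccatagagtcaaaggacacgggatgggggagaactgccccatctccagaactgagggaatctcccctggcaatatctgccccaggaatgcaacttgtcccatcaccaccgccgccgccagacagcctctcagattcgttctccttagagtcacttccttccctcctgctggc

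Both strands were searched for ACAAAG and AACAAT, short forms bound by SOX factors, and for GCGTGGG, a core bound by EGR2. The capitals in Mag are the reverse strand of ACAAAG, a motif held by 16.5% of 32851 windows of this length. It was in 2 of the 3 Mag windows, which overlap and hold the same site. The third, at chr7:30914322-30914571, did not hold it. AACAAT was in 9.42% of all windows and GCGTGGG in 4.30%, and neither was in these 2. Of the members with a window here, Pmp22 (4 windows), S100b and Ngfr held none of the 3 motifs, and Prx held 1 GCGTGGG. Windows of Mbp and Sox10 were not used. A match in these letters is a description of the window and does not show a binding site.

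Sox10, the transcription factor of the lineage, was read by 3 probe sets. Probe set 1451689_a_at had a signal of 344 in KOE, 310 in KO and 211 in WT. Probe set 1424985_a_at had 128 in KOE, 111 in KO and 106 in WT, and 1425369_a_at had 58.1 in KOE, 67.6 in KO and 43.8 in WT. All 3 were lowest in WT, but the sizes differed, with ratios of KO to WT of 1.47, 1.05 and 1.54. The strongest was under the cut-off as deposited, and past it with median (log2 ratio 0.83), quantile (0.74), cyclic loess (0.66) and fibroblast scaling (0.87).

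S100b lay in the same order with smaller differences. Its probe set 1434342_at had a signal of 433 in KOE, 359 in KO and 284 in WT, and 1419383_at had 240 in KOE, 177 in KO and 167 in WT. The ratios of KO to WT were 1.26 and 1.06, neither past the cut-off. With median and with fibroblast scaling the first was past it, at log2 ratios of 0.60 and 0.65.

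Pmp22, a membrane protein of compact myelin that other cell types of skin also make, had the strongest signal of its single probe set in KOE, with 6993, against 6113 in KO and 5343 in WT. Its ratio of KO to WT was 1.14, a log2 ratio of 0.19 that turned to −0.02 with keratinocyte scaling. Of all probe sets, 28.8% had a higher ratio.

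Ngfr was read by 3 probe sets that did not go together. The strongest, 1454903_at, had 439 in KOE, 392 in KO and 327 in WT, a ratio of KO to WT of 1.20. Probe set 1450177_at had 13.0 in KOE, 47.2 in KO and 6.35 in WT, and it counts as higher in KO by 7.43-fold with a single array above 40. Probe set 1421241_at stayed far under 40 in each array, with 3.76 in KOE, 11.9 in KO and 8.07 in WT. When all 3 were averaged on the log2 scale, the log2 ratio of KO to WT was 1.24 in place of 0.26, a value that rests on the weak probe sets.

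**Figure D2:**
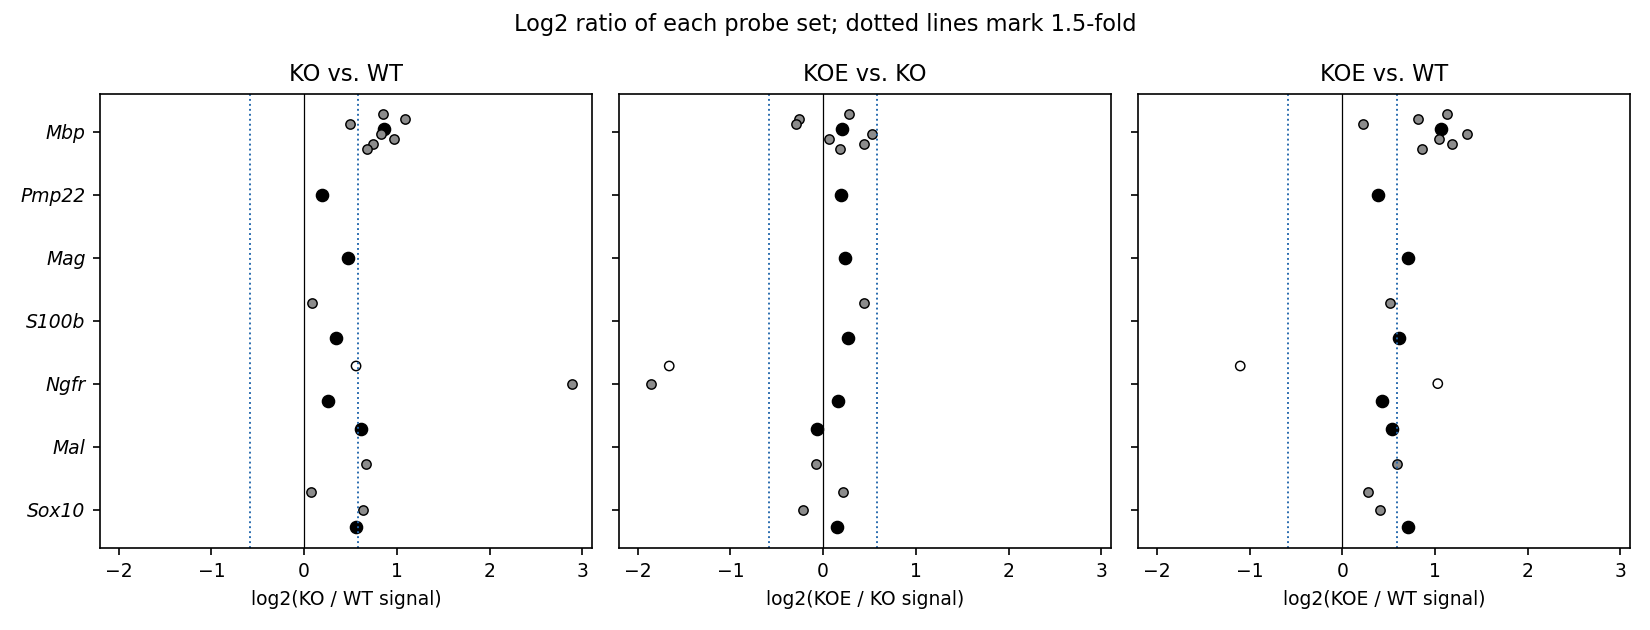
Log2 ratio of the signals of each member probe set, in KO vs. WT (left), KOE vs. KO (middle) and KOE vs. WT (right). Large black points are the probe set with the highest mean of a gene, open points had under 40 in both arrays, and dotted lines mark 1.5-fold. Mbp lies at 0.50 to 1.09 in KO vs. WT and on both sides of 0 in KOE vs. KO.

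In KOE, fed the diet with pESM, the member genes had signals near those of KO. In KOE vs. KO, none of the 19 member probe sets that reached 40 was higher past the cut-off and 1 was lower, beside 14.5% higher and 5.93% lower among all 32563 probe sets. The lower one was the weak Ngfr probe set 1450177_at, which was under 40 in KOE. Among genes, 0 of the 7 passed as higher and 0 as lower, beside 10.9% higher and 5.33% lower among 14594 genes. The log2 ratios of the 7 genes lay between −0.07 for Mal and 0.27 for S100b, with a median of 0.19 against 0.02 over all genes. Each of these ratios was within the SD of 0.29 between probe sets of 1 gene.

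The 8 probe sets of Mbp were split, with 6 above KO and 2 below it, log2 ratios from −0.29 to 0.53 and a mean of 0.14 ± 0.30 (SD). The highest was 1436201_x_at, with 1319 in KOE and 916 in KO. The lowest was 1425264_s_at, with 684 in KOE and 834 in KO. Both can cross-hybridize by their suffix. The members' median moved with that of all genes under other scalings, to 0.03 with median scaling, where all genes had −0.14, and to −0.10 with fibroblast scaling, where all genes had −0.28 and all 7 members lay below KO.

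Compared with WT, the KOE pool had higher signals of Mbp and of 3 further members. Of the 18 member probe sets that reached 40, 11 passed as higher in KOE and 0 as lower, beside 13.2% higher and 14.5% lower among 33272 probe sets. The 11 were 7 of Mbp and 1 each of Mag, S100b, Mal and Sox10. Read once per gene, Mbp, Mag, S100b and Sox10 were higher, 4 of 7, beside 12.4% higher and 10.4% lower among 14784 genes. Their median log2 ratio was 0.61 over the 7 genes, against 0.05 over all genes. Mbp had the highest, with 1.06, and Pmp22 the lowest, with 0.39. With keratinocyte scaling 5 member probe sets were higher, beside 850 of all 14803 genes. The median of all genes was then −0.25, against 0.32 for the members. Mag, S100b and Sox10 were under the cut-off there with log2 ratios of 0.42, 0.32 and 0.42. With all probe sets of a gene averaged, S100b (0.56) and Sox10 (0.46) were under it too, as were Mag (0.42) and S100b (0.54) with 40 added to each signal and Mag with a signal limit of 100. These values and those of KO vs. WT share the WT array.

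Other genes of myelin, from a list of 15 with 12 measured, lay mostly to the same side. Of 10 that reached 40 in KO or WT, 4 were higher in KO and none was lower. The list had a median log2 ratio of 0.51. Among all genes, 10.9% were higher and 14.5% lower. Ncmap, a protein of noncompact myelin, had a signal of 252 in KOE, 295 in KO and 122 in WT. Cnp, an enzyme of the myelin sheath, had 1675 in KOE, 2354 in KO and 1124 in WT at a probe set that can cross-hybridize. These genes thus lay lowest in WT, like the members. Gal3st1, which makes the myelin lipid sulfatide, had 812 in KOE, 1069 in KO and 465 in WT. Drp2, which joins periaxin to the outer Schwann cell membrane, was 1.84-fold higher in KO than in WT.

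Others of this list were under the cut-off. Fa2h, which makes hydroxylated fatty acids for myelin and for the epidermis, had 5188 in KOE, 4621 in KO and 4284 in WT. Cadm4, an adhesion protein between Schwann cell and axon, had 349 in KO and 492 in WT, and Cldn19, a tight junction protein of the sheath, had 65.0 and 75.6, neither past the cut-off. Pmp2 and Gjb1, a lipid carrier and a gap junction protein of myelin, were under 40 in each array. In KOE vs. KO none of 10 was higher and 1 was lower, beside 10.9% higher and 5.33% lower among all genes. The lower one was Nfasc, an adhesion protein of the node of Ranvier, with 56.4 in KOE and 88.0 in KO. With median scaling 3 were lower, beside 1326 of 14711 genes, and with fibroblast scaling 4, beside 2169 of 14684.

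Regulators of the Schwann cell gave 4 higher and none lower of 11 for KO against WT, beside 10.9% and 14.5% of all genes. The median log2 ratio of the 11 was 0.44. Adgrg6, the receptor needed to start myelination, had 2226 in KOE, 2943 in KO and 1453 in WT at a probe set that can cross-hybridize by its suffix. Lgi4, a secreted protein of Schwann cells, had 539 in KOE, 560 in KO and 299 in WT, and Sh3tc2, a protein of Schwann cell endosomes, was 1.80-fold higher in KO than in WT. Sox2, a factor of immature Schwann cells that also marks the dermal papilla of the hair follicle, had 175 in KOE, 104 in KO and 40.9 in WT and was the only regulator past the cut-off in KOE vs. KO as deposited, by 1.69-fold. With cyclic loess normalization 0 regulators passed there, beside 1028 higher and 1089 lower of 14359 genes. With fibroblast scaling 0 passed as higher and 1 as lower, beside 871 higher and 2169 lower of 14684. Egr2, the partner of Sox10 in myelination, had 3221 in KOE, 2557 in KO and 3154 in WT. Erbb3, the receptor for axonal neuregulin, had 4038, 4265 and 3818 in KOE, KO and WT. Ndrg1, which is also active in epithelia, had 4858, 4462 and 3126, likewise at a probe set that can cross-hybridize.

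Genes of Schwann cells without myelin gave 2 higher and 1 lower of 8 for KO against WT, beside 10.9% and 14.5% of all genes. The median of the list was 0.42. Cdh19, a cadherin of the glial lineage, had 835 in KOE, 1088 in KO and 334 in WT, a ratio of KO to WT of 3.26. Scn7a, a sodium channel of these cells, had 1062 in KOE, 1181 in KO and 500.0 in WT. Fabp7, a fatty acid carrier of glia, was the lower one, with 48.1 in KO and 95.9 in WT. Gpm6b, a membrane protein of glia and neurons, had 2290, 2020 and 1557 in KOE, KO and WT, and Lpar1, a receptor for lysophosphatidic acid, had 2417, 1952 and 2162. Gfap, an intermediate filament of glia, counts as higher in KOE than in KO with 69.8 against 5.01, a difference that rests on 1 signal above 40.

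**Figure D3:**
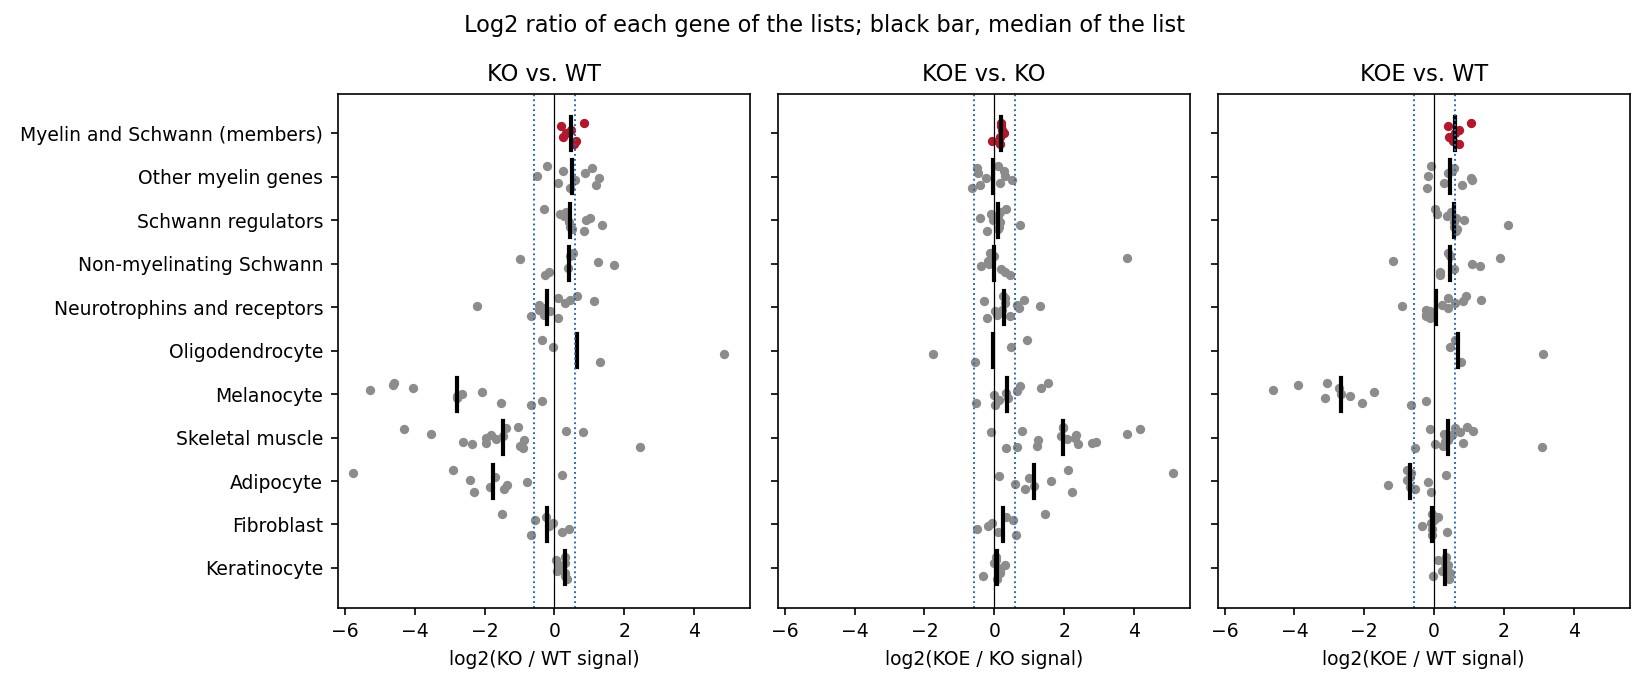
Log2 ratio of each gene of 11 lists that reached 40 in at least 1 of the 2 arrays, in KO vs. WT (left), KOE vs. KO (middle) and KOE vs. WT (right), with the members in red and without the hair and neuron lists. Black bars are list medians and dotted lines mark 1.5-fold. In KO vs. WT the bars of the members and of the 3 other glial lists lie at 0.42 to 0.51, that of oligodendrocyte genes at 0.64, and those of melanocyte, muscle and adipocyte genes lie at −2.78, −1.48 and −1.76.

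Under each of 5 scalings, the 3 lists of other glial genes kept medians above 0 in KO vs. WT and KOE vs. WT. The lowest were 0.20 in KO vs. WT and 0.15 in KOE vs. WT, both for the list without myelin with keratinocyte scaling. With the same scalings, all genes had medians of −0.21 to 0.34 in KO vs. WT and −0.25 to 0.16 in KOE vs. WT. Which cells of the skin gave the signals of these lists was not tested. Over these scalings 4 to 6 other myelin genes and 4 to 9 regulators were higher in KO than in WT. For genes of Schwann cells without myelin the count was 2 to 5. The lowest counts came with keratinocyte scaling, where 920 of all 14632 genes were higher. The 9 regulators came with fibroblast scaling, where 3904 of 14626 genes were higher. In KO 1 other myelin gene was lower with keratinocyte scaling, and 1 gene of the list without myelin was lower under each scaling. All lists here were chosen with earlier results of these arrays known.

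Markers of other cells differed between the arrays as well, and their part in the members' differences was not tested. Among all genes, 10.9% were higher and 14.5% lower in KO than in WT. In bulk skin, fewer cells of a type and less RNA per cell cannot be told apart. Of 11 genes of melanocytes, cells that share Sox10 and S100b with Schwann cells, 10 passed as lower in KO and 0 as higher, with summed signals of 4036 in KOE, 3095 in KO and 17783 in WT. They were thus highest in WT, where Sox10 and S100b were lowest. Dct, a pigment enzyme, had 718 in KOE, 285 in KO and 4761 in WT, and Mitf, the regulator of the lineage, had 1670, 1529 and 1948 in KOE, KO and WT. All 18 hair follicle genes were lower in KO, and their summed signal was 1830 in KOE, 1889 in KO and 229602 in WT.

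Of 17 muscle genes, 14 passed as lower in KO and 2 as higher, and their signals summed to 50441 in KOE, 12004 in KO and 35772 in WT. Of 10 adipocyte genes, 9 were lower in KO, and the sums over the list were 30416 in KOE, 11804 in KO and 40249 in WT. Both lists lay lowest in KO, whereas the strongest probe set of each of the 7 members lay lowest in WT. Of keratinocyte genes, none of 9 was past the cut-off, with log2 ratios of 0.06 to 0.35 in KO vs. WT and a median of 0.29. Their summed signals were 204648 in KOE, 193959 in KO and 167182 in WT, so lowest in WT like the members. For fibroblasts, 2 of 8 passed as lower in KO and 0 as higher, with summed signals of 154012 in KOE, 127735 in KO and 155408 in WT.

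Markers of the oligodendrocyte, the myelin cell of the brain that skin lacks, were read beside the members. Of 6 such genes, Mog and Olig2 were under 40 in each array. Of the 4 that reached 40, 2 were higher in KO than in WT and 0 lower, beside 10.9% and 14.5% of all genes. Their median log2 ratio was 0.64. For KOE against WT 3 passed as higher and 0 as lower, beside 12.4% and 10.4% of all genes, and the median of the list was 0.68. As deposited, the medians of 0.64 and 0.68 lay above the 0.47 and 0.61 of the members. In KOE vs. WT they lay below the members with quantile normalization (0.65 against 0.71) and cyclic loess normalization (0.58 against 0.65). Opalin had 86.7 in KOE, 62.1 in KO and 63.6 in WT, and Mobp had 84.6, 43.9 and 56.1. Olig1 had 59.4 in KOE, 199 in KO and 6.89 in WT, and Cldn11, a tight junction protein of central myelin that other cells also make, had 46.3, 67.2 and 27.1. With 4 genes and weak signals these medians rest on few values, and what these probe sets read in skin was not tested.

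The cell bodies of sensory neurons lie outside the skin, and most neuron genes gave signals under 40. Of 12 measured, 5 reached 40 in KO or WT, with 2 higher and 1 lower in KO, beside 10.9% and 14.5% of all genes. Stmn2, a growth cone protein, had 253 in KOE, 252 in KO and 184 in WT, and Uchl1, known as PGP9.5 and used to stain skin nerves, had 67.2, 76.5 and 30.6. Syt1, a protein of synaptic vesicles, had 82.2, 79.6 and 76.7. Tubb3, a neuronal tubulin, went the other way with 17.2 in KOE, 64.4 in KO and 342 in WT.

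**Figure D4:**
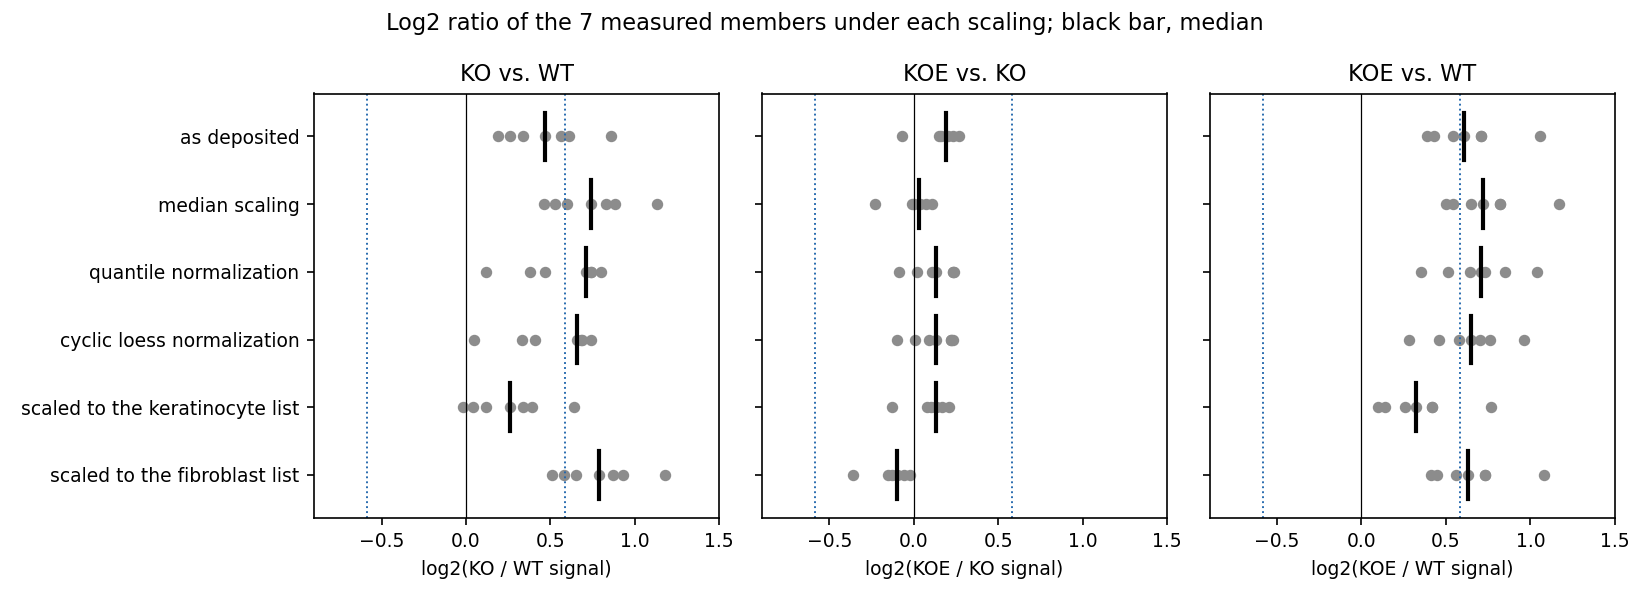
Log2 ratio of the 7 measured members, each read from 1 probe set, as deposited and under 5 other scalings of the arrays, in KO vs. WT (left), KOE vs. KO (middle) and KOE vs. WT (right). Black bars are medians and dotted lines mark 1.5-fold. The median in KO vs. WT lies between 0.26 and 0.79, and that in KOE vs. KO between −0.10 and 0.19.

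The pattern of the members, with a median log2 ratio of 0.47 in KO vs. WT and 0.61 in KOE vs. WT, was common on the arrays. Of 12887 genes with at least 40 in all 3 arrays, 896 (6.96%) lay within a distance of 0.25 of it on the log2 scale. The 5 nearest were Zglp1, Fam124a, Cadps2, Pik3r6 and Irf2, at distances of 0.014 to 0.021. With 3 arrays a pattern has 2 free ratios, so this nearness says nothing of shared function.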

How the data were processed

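Back skin of WT, KO and KOE mice was measured on 3 Affymetrix mouse expression arrays, 1 per group, each with 250 ng of pooled RNA. The authors deposited linear signal intensities, computed in R by the algorithm of Microarray Analysis Suite 5. The 2% trimmed mean was 500.0 on each array. No detection calls were used here. Without 64 control probe sets, 45037 of 45101 were kept, of which 34945 have 1 gene name, 932 several and 9160 none here. Of the named, 34741 were matched by gene identifier to RefSeq symbols.

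Ratios were formed from the deposited signals with no further scaling, and no test was possible. The spread between probe sets of 1 gene was taken over 6178 to 6309 genes with at least 2 probe sets above 40 in both arrays. Alternatives changed the scaling (common median, quantile, cyclic loess, span 0.7, 3 iterations), the signal limit (both arrays, none, 100), weak signals (set to 40, or 40 added), the fold limit (2), whether cross-hybridizing probe sets entered, and how several probe sets of 1 gene were combined. Scaling to the geometric mean of the keratinocyte or fibroblast list was added after seeing the data.

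All members are named. Of each other list the rule named the 3 strongest genes and the 1 with the largest difference in KO vs. WT and in KOE vs. KO, and the 5 genes nearest to the members. Of the lists of other cell types mostly sums are given. Drp2, Cadm4, Cldn19, Pmp2, Gjb1, Adgrg6, Lgi4, Sh3tc2, Fabp7, Uchl1, Mog, Olig2, Cldn11, Bdnf, Gdnf, Gfra1 and Ntrk3 fall outside the rule and were chosen after their values were seen. The members, lists and rules were chosen with earlier results of these data known. Promoter sequences are from RefSeq, build GRCm38.p6. The procedure was tested on simulated data. The tools were Python 3.11.15 (numpy 2.4.6, pandas 2.3.3) and R 4.3.3 (limma 3.58.1).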

Additional observations from a re-analysis of the deposited data

How the results depend on the processing

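With a 2-fold limit, 2 member probe sets were higher in KO than in WT and 5 in KOE than in WT, in place of 11 in each. The share of all probe sets past a 2-fold limit is not given here, so these counts have no background beside them. With keratinocyte scaling the counts were 6 and 5. Of all genes, 920 of 14632 were then higher in KO than in WT and 850 of 14803 in KOE than in WT. In KOE vs. KO, the count of lower probe sets was 1, and it was 0 with 40 required in both arrays, with a limit of 100 or with signals under 40 set to 40, and 2 without a limit, all from weak Ngfr probe sets. Without a limit, 1 was lower in KOE than in WT. The median of the members in KOE vs. KO, 0.19, was −0.10 with fibroblast scaling. Over the alternatives the members' median was 0.26 to 0.79 in KO vs. WT and 0.32 to 0.72 in KOE vs. WT.

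The split of all genes past the cut-off depended on scaling. In KO vs. WT 42.9% were higher as deposited, 72.4% with median scaling, 57.4% with quantile normalization, 21.8% with keratinocyte and 76.3% with fibroblast scaling. In KOE vs. KO the share was 67.1% as deposited and 47.1%, 49.6%, 48.6% and 28.7% with median, quantile, cyclic loess and fibroblast scaling, and in KOE vs. WT 54.3% as deposited and 66.6% and 21.6% with median and keratinocyte scaling. At the 1.5-fold limit, the alternatives of scaling and signal limit gave 920 to 3904 genes higher and 1213 to 3355 lower in KO vs. WT (1582 and 2105 as deposited), 647 to 2944 and 384 to 2169 in KOE vs. KO (1585 and 778), and 850 to 3160 and 1043 to 3084 in KOE vs. WT (1831 and 1543). Single arrays and signals near 40 limit the precision.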

Other observations

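Neurotrophic factors and their receptors, a list of 18 with 15 measured, gave 2 higher and 2 lower of the 14 that reached 40 in KO vs. WT. Among all genes, 10.9% were higher and 14.5% lower. The median log2 ratio of the list was −0.20, which turned to 0.07 with median and 0.12 with fibroblast scaling. Nrtn, the ligand neurturin, had a signal of 2053 in KOE, 2531 in KO and 1158 in WT, and Bdnf, a ligand that binds Ngfr, had 134, 112 and 72.2. Ret, the receptor that Nrtn and Gdnf act through, had 184 in KOE, 75.1 in KO and 348 in WT. Maged1, which binds the inner part of Ngfr, had 1971 in KOE, 1444 in KO and 2308 in WT, and Bex3, which also binds Ngfr, had 1630, 1880 and 1770.

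In KOE vs. KO, 4 of 14 were higher and none was lower, namely Ret, Gdnf, Gfra1 and Ntrk3, with ratios of 2.46, 1.82, 1.63 and 1.58, beside 10.9% higher and 5.33% lower among all genes. The count was 2 with median scaling, beside 1181 of 14711 genes higher. It was 3 with quantile or cyclic loess normalization, beside 1127 of 14620 and 1028 of 14359. With keratinocyte scaling it was 4, beside 1340 of 14387. With fibroblast scaling 1 was higher and 1 lower, beside 871 higher and 2169 lower of 14684. Gdnf is a growth factor for sensory neurons and Schwann cells, and Gfra1 is the receptor subunit that binds it. Their signals were 148 in KOE and 81.3 in KO for Gdnf and 539 and 330.0 for Gfra1. The median of the list, 0.28, was −0.02 with fibroblast scaling.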
